A study of Mus musculus with 2 samples.

Results

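Expression of 8 genes of the endothelin and nitric oxide (NO) systems was measured in mouse glomeruli: Edn1 and Edn3, which encode endothelin peptides, Ece1, which encodes the endothelin-converting enzyme, the receptor genes Ednra and Ednrb, and the NO synthase genes Nos1, Nos2 and Nos3. The genes were chosen by name, with earlier results of these data known, and taken as all array probes whose RefSeq accession belongs to them. They are 8 of 20659 named genes, had 10 of the 39429 gene probes, and all were among the 18239 genes measured, that is well above background on both arrays. Each probe is a short DNA oligonucleotide, and those of Edn1 and Nos3 included 1 probe each that was spotted 10 times on the array.

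Glomeruli, the filtering units of the kidney, came from male mice aged 8 months, 4 months after 1 intraperitoneal injection of 0.5 ml of pristane, an oil that induces a lupus-like disease with nephritis. One-colour arrays were hybridised with RNA of 2 groups, wild type (WT) and a knockout of Sirpa restricted to podocytes (Sirpa-/-), with 1 array per group. Both groups were injected with pristane, and no uninjected mice were analysed here. The series' title asks whether podocytes without SIRPα, an inhibitory receptor, present antigen to T cells in lupus nephritis. The design text names isolated podocytes where the sample labels and the extraction protocol name glomeruli collected with magnetic beads. The sources used here do not name the Cre line that drives the deletion, the strain or the number of mice behind each array. Because the array with the knockout label showed a higher signal for Sirpa (below), it is called the knockout-labelled array throughout. Since each group had a single array, no replicate spread and no test between the groups can be given, so each value below describes these 2 hybridisations only.

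Endothelins are small peptides that are cut from a longer precursor by furin-type proteases and then by the converting enzyme. Endothelin-1 acts on the ETA receptor (Ednra) of smooth muscle and mesangial cells, where it causes contraction, and on the ETB receptor (Ednrb), which on endothelial cells raises NO output and clears endothelin-1 from the blood. NO is made from arginine by 3 synthases: the neuronal enzyme (Nos1), which the kidney has in the macula densa, the inducible enzyme (Nos2) of activated macrophages and other cells, and the endothelial enzyme (Nos3). NO diffuses into neighbouring cells, activates soluble guanylate cyclase and relaxes vessels.

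Of the 8 genes, 6 had lower signals on the knockout-labelled array and 2 had higher ones, against 49.8% and 50.2% of all measured genes. The small difference of Edn3, counted as lower, changed sign with another background correction (normexp). The largest differences were those of Ednrb, 1.74-fold higher on the WT array, Nos3, 1.49-fold higher there, and Nos2, 1.43-fold higher there. No gene reached 2-fold in either direction, and among all measured genes 1.56% were higher and 1.67% were lower by 2-fold or more on the knockout-labelled array. The median log2 difference of the 8 genes was -0.25, against 0.00137 over all measured genes, and it was -0.41 over the 6 genes left by a stricter filter on dim probes. Of the 10 probes, 8 were lower on the knockout-labelled array, that of Edn3 included. All differences are log2 values of that array minus the WT array after scaling. A scaled signal is the probe's processed intensity divided by the array's 75th percentile and brought to a common scale, so levels may be compared between the arrays for 1 probe but not between probes.

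**Figure D1:**
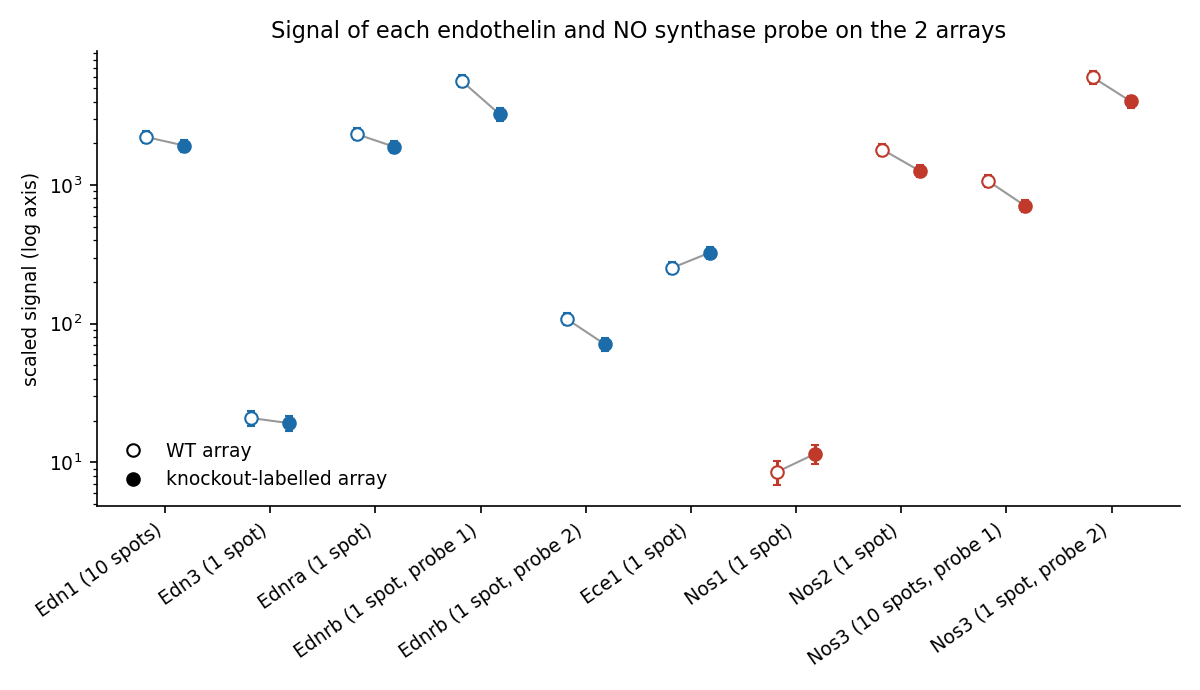
Scaled signal (log axis) of each of the 10 probes on the WT array (open circles) and on the knockout-labelled array (filled circles), endothelin genes in blue and NO synthase genes in red. Bars are the scanner software's error of a spot, not a spread between animals. Lines slope down for all probes but those of Ece1 and Nos1, and heights of different probes are not comparable.

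Sirpa itself, the deleted gene, had a scaled signal of 11378 in WT and 17691 on the knockout-labelled array, a log2 difference of 0.64 against the label. Where its only named probe lies relative to the deleted part is not stated in the labels or files, and cells other than podocytes keep the gene, so the probe does not settle the label. The scanner software marked 85.3% of WT gene probes and 86.7% of those on the other array as well above background, and 0 spots were saturated. Probes spotted 10 times gave log2 differences between the arrays with a median SD over spots of 0.055 for 254 probes brighter than the median probe and 0.30 for 106 dimmer ones. This is technical spread alone. Both arrays lay on 1 slide, WT at position 1 and the knockout-labelled array at position 3, so position and group cannot be told apart. Markers of podocytes (10 of 10), endothelial cells (12 of 12) and mesangial and smooth muscle cells (9 of 9) were well above background on both arrays, and so were all 8 proximal tubule markers.

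Edn1, the gene of endothelin-1, had a scaled signal of 2219 in WT and 1927 on the knockout-labelled array, as means over 10 spots. The spots ran from 2076 over a median of 2224 to 2453 on the WT array, and from 1807 over 1912 to 2157 on the other. Every spot was lower on the knockout-labelled array than the spot at the same place on the WT array, in 10 of 10 pairs, although the ranges of the arrays overlapped. The log2 difference was -0.20 with an SD over spots of 0.066, which is 1.15-fold higher on the WT array. A difference of that size or larger was seen in 38.4% of all measured genes. This share includes dim genes, whose technical spread is larger. Among genes of like brightness, with a mean log2 signal within 0.5 of that of Edn1, it was 27.1%. Edn3, the gene of endothelin-3, was dim, with scaled signals of 20.9 and 19.2 and a log2 difference of -0.12. Its spot error of 12.4% and 12.5% was larger than this difference, and its sign turned to 0.17 with normexp, so Edn3 has no direction here.

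The converting enzyme gene Ece1 was the endothelin gene with the opposite direction. Its probe gave 252 in WT and 326 on the knockout-labelled array, 1.29-fold higher there, with a log2 difference of 0.37. It had 1 probe with 1 spot, and 19.2% of all measured genes were at least as far from 0. Among genes of like brightness the share was 20.3%. Edn1 and Ece1 had opposite signs between these arrays, each by less than 1.5-fold. The scanner software's error for a difference between 2 single spots corresponds to 0.20 on the log2 scale. That is about the size of the Edn1 difference. The Edn1 value, however, is a mean over 10 spots, with an SD over spots of 0.066. Whether ligand and converting enzyme differ in opposite directions was not tested.

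Both receptor genes were lower on the knockout-labelled array, Ednrb by more than Ednra. Ednrb gave 5629 in WT and 3242 on the other on its brighter probe, a log2 difference of -0.80, and 108 and 71.2 on its dimmer probe, a log2 difference of -0.60. The 2 probes thus had the same direction, and each lay at least 1.5-fold apart between the arrays. They differed from each other by 0.19, close to the median of 0.20 over 4561 genes with 2 or more measured probes. The scanner software's error for a spot, about 10% on each array, corresponds to 0.20 on the log2 scale for such a difference. A difference as large as that of the brighter Ednrb probe was seen in 5.29% of all measured genes and in 1.99% of genes of like brightness. Ednra, the receptor of smooth muscle and mesangial cells, gave 2331 and 1885 on its only probe, a log2 difference of -0.31. At least as far from 0 were 24.6% of all measured genes and 14.7% of those of like brightness. Set against each other within the arrays, the brighter Ednrb probe was lower by more than the Ednra probe, which was not tested.

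**Figure D2:**
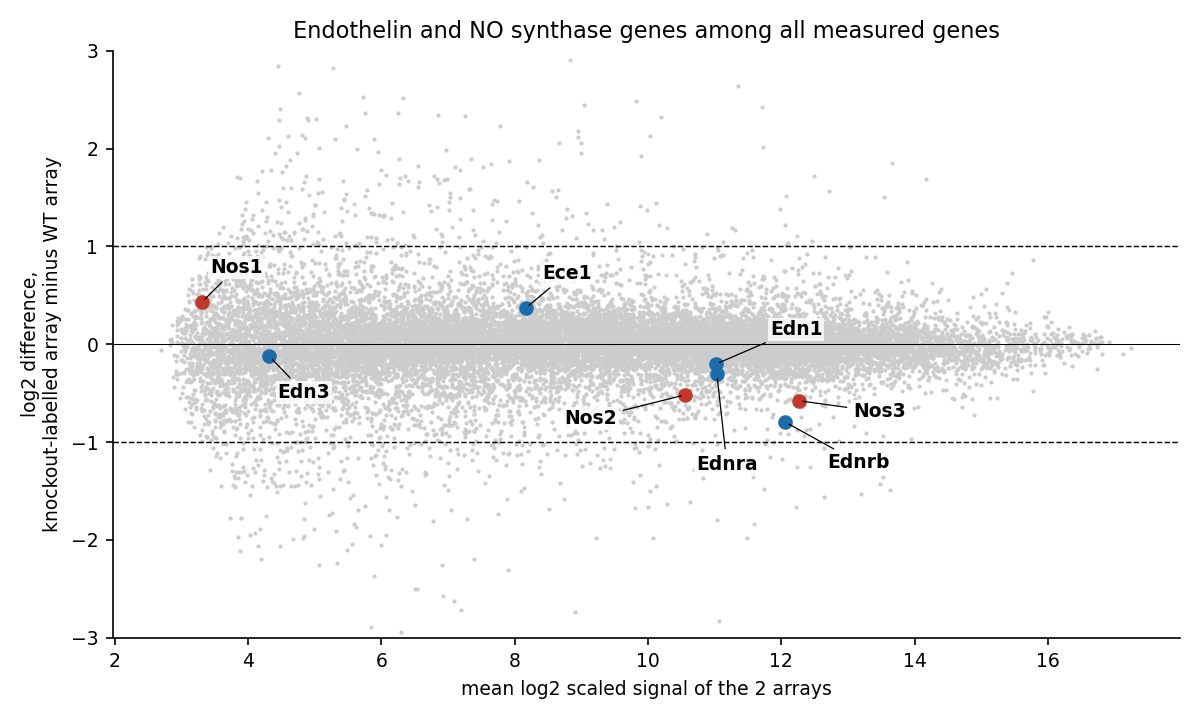
Log2 difference between the arrays against the mean log2 scaled signal, 1 point per measured gene (grey) with endothelin genes in blue and NO synthase genes in red. Dashed lines mark 2-fold, and 21 genes beyond a log2 difference of 3 lie outside the axis. All 8 genes lie inside the dashed lines, and Ednrb is nearest to one of them.

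Promoter sequence is shown for the ligand Edn1 and for Ednrb, the receptor gene with the largest difference, so that the short letters below can be read in place. RefSeq's table for GRCm38.p6 holds promoters of 6 of the 8 genes. The windows run from 250 bases before the annotated start of transcription to 30 bases after it, read 5′ to 3′ along the gene. Capitals mark each match on either strand to AGATAA or TGATAA (the GATA factor motif), ACGTG (the core of the hypoxia response element) or CACCC (a box bound by KLF factors). TATAAA (the TATA box), TGACTCA (the AP-1 motif) and GGGCGG (the GC box) were also searched and had no match in either window. Bases beyond the windows were not searched, so a missing match does not show that a gene lacks these letters. Whether transcription in these glomeruli begins at the annotated start was not tested.
Edn1, chr13:42301226-42301505, plus strand: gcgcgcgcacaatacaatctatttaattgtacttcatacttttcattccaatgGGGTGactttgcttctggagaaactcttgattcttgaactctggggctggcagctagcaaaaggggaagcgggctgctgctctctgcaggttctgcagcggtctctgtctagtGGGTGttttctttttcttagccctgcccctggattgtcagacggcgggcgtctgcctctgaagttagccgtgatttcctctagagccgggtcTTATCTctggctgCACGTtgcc
Ednrb, chr14:103843672-103843951, minus strand: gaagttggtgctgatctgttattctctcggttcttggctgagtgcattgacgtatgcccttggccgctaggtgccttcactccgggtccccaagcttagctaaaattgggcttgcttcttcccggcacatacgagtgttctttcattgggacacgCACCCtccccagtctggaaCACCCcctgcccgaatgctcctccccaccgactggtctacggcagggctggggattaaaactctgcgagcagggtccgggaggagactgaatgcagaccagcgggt
In the Edn1 window the GATA letters (TTATCT on the strand shown) start 8 bases after the annotated start and the hypoxia response core (CACGT) 21 bases after it, with CACCC letters at 2 further places. The Ednrb window had CACCC letters at 2 places and no other match. Among all 32851 promoter windows, GATA letters were found in 17.9%, the hypoxia response core in 18.5%, the CACCC box in 55.4%, the TATA box in 13.1%, the AP-1 motif in 4.94% and the GC box in 34.7%. No matches of different motifs overlapped in these windows, and a match describes letters, not a bound site.

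Nos3, the endothelial NO synthase, was lower on the knockout-labelled array on both of its probes. The brighter probe gave 5995 in WT and 4020.0 on the other, a log2 difference of -0.58. The probe spotted 10 times gave 984, 1084 and 1215 as lowest, median and highest spot in WT and 658, 714 and 768 on the other. These ranges did not overlap, and the spot was lower on the knockout-labelled array in 10 of 10 pairs. Its log2 difference was -0.61 with an SD over spots of 0.059, so the difference was larger than the technical spread of the spots. The probes differed by 0.031 (log2), and 8.22% of genes with 2 or more measured probes had probes that close together. A difference as large as that of the brighter probe was seen in 9.84% of all measured genes and in 3.49% of genes of like brightness.

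**Figure D3:**
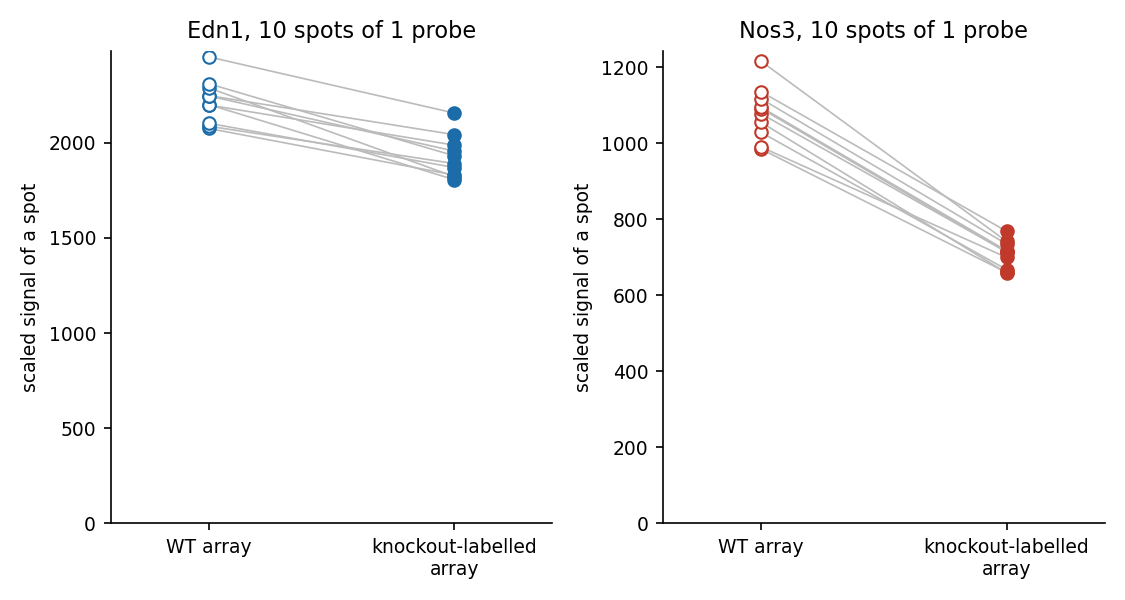
Scaled signal of each of 10 spots of 1 Edn1 probe (left) and 1 Nos3 probe (right) on the WT array (open) and on the knockout-labelled array (filled), with lines joining spots at the same place. The Nos3 spots of the arrays do not overlap, while the Edn1 spots do. The spots share 1 RNA sample per array.

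Nos2, the inducible NO synthase, gave 1803 in WT and 1260.1 on the knockout-labelled array on its only probe, a log2 difference of -0.52. It was thus 1.43-fold higher on the WT array. At least as far from 0 were 11.8% of all measured genes and 6.62% of those of like brightness. Nos1, the neuronal enzyme, was the NO synthase gene with a higher signal on the knockout-labelled array. Its scaled signals of 8.55 in WT and 11.5 on the other array were close to the lowest signals well above background, 6.58 and 6.34. Its log2 difference of 0.43 compares with a spot error of 20.3% and 15.8%, or 0.37 on the log2 scale for a difference between the arrays. With normexp the difference was 0.24.

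At a lower threshold of 1.5-fold, 1 of the 8 genes was lower on the knockout-labelled array, namely Ednrb, and 0 were higher, against 5.27% and 4.34% of all measured genes. The brighter Nos3 probe lay just inside that threshold and the probe spotted 10 times just outside it, at 1.52-fold. Of the 6 genes whose probe was brighter than the median gene probe, 5 were lower on the knockout-labelled array, Ece1 being the exception. Across all measured genes 49.8% lay below 0 and 50.2% above.

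The genes around the 8 members were read from 5 lists, chosen with earlier results of these data known. The lists hold 38 genes, of which 35 were measured on both arrays. Their median log2 difference was -0.043, nearer to 0 than that of the members, with 22 genes below 0 and 13 above. Among all measured genes the shares were 49.8% and 50.2%. By 2-fold or more, 1 of the 35 genes was higher and 1 was lower on the knockout-labelled array, against the shares of 1.56% and 1.67% of all measured genes. The one that was lower was Gchfr, which encodes the feedback regulator of GTP cyclohydrolase. This enzyme takes part in the synthesis of tetrahydrobiopterin (BH4), the cofactor that NO synthases need. Gchfr gave 8568 in WT and 3581 on the other, a log2 difference of -1.26.

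Among the 6 genes of BH4 supply, 3 lay above 0 and 3 below, with a median of -0.069, or 0.0088 with the stricter filter. Besides Gchfr the largest difference was that of Pts, an enzyme of BH4 synthesis, with 2023 in WT and 2891 on the knockout-labelled array, a log2 difference of 0.52. Gch1, the cyclohydrolase gene itself, which is given after its values were seen because Gchfr acts on its product, gave -0.38 on its brighter probe and -0.37 on the other. Regulator and enzyme were thus both lower on the knockout-labelled array, the regulator by more.

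Among genes of arginine supply and of inhibitors of NO synthesis, 0 of 8 measured genes reached 2-fold and the median was -0.024, or -0.17 with the stricter filter. Slc7a1, an arginine transporter, gave 1513 in WT and 1007 on the knockout-labelled array, a log2 difference of -0.59. Ddah1, which degrades the NO synthase inhibitor ADMA, gave 194 and 259, a log2 difference of 0.41, and 0.37 on its probe spotted 10 times. Arg1, an arginase that competes for arginine, was well above background on the knockout-labelled array only, at 8.58, and was at least 1.30-fold higher there. The bound sets this signal against the lowest signal well above background on the WT array. It is not firm, since Arg1 had 1 spot close to the lowest signals, with errors of 42.7% in WT and 19.0% on the other.

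In endothelin processing and breakdown, 4 of 6 genes were measured, 0 reached 2-fold and the median was -0.071. That median has no settled direction, since it was 0.067 with normexp, 0.12 with no filter on dim probes and 0.0057 with the stricter filter. Mme, the peptidase neprilysin that degrades endothelin-1, gave 2198 in WT and 2681 on the knockout-labelled array, a log2 difference of 0.29, with 0.19 on its other probe. Edn2, the remaining endothelin gene, gave 136 and 113, a log2 difference of -0.28. Of the unmeasured genes, Kel was not well above background on either array. On 1 probe Mmel1 was well above background on the knockout-labelled array only and at least 1.26-fold higher there. That signal was dim, 8.26 with a spot error of 22.3%, and its other probe was well above background on neither array.

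Partners of the NO synthases had a median of -0.019 over 9 genes and a range from -0.11 to 0.26. Nos1ap, an adaptor of the neuronal enzyme, had the highest value, 0.26, and Klf4, a transcription factor of endothelial and other cells, gave 0.12. Klf2, a flow-induced factor known to raise Nos3 transcription, is given after its values were seen and gave 0.11, from 42454 in WT and 45787 on the other. Downstream of NO, 8 genes of guanylate cyclase and cGMP signalling had a median of -0.072, with 6 below 0. Prkg2, a cGMP-dependent kinase, was 2.26-fold higher on the knockout-labelled array, but at dim signals of 9.93 and 22.4. Its log2 difference of 1.18 became 0.45 with normexp, which is no longer 2-fold, and the stricter filter left the gene out. Gucy1a2, a less common cyclase subunit, gave -0.34 and, on its other probe, -0.44, both at dim signals.

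**Figure D4:**
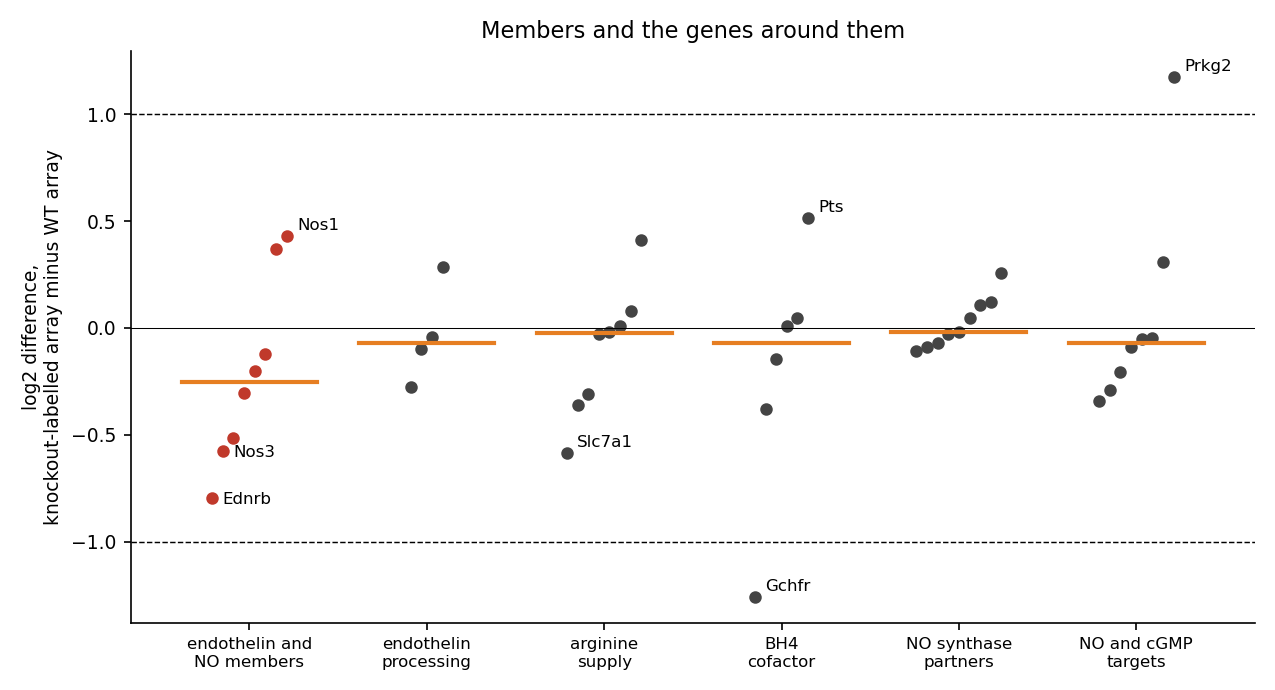
Log2 difference between the arrays for the 8 members (red) and for the measured genes of 5 lists around them (grey), 1 point per gene, with orange bars at the medians and dashed lines at 2-fold. The member median of -0.25 lies below the medians of the other lists, which run from -0.072 to -0.019 at these settings, while 4 of the 5 list medians crossed 0 under some alternative.

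Markers of the cells that carry these genes were set beside them, from lists also chosen with earlier results of these data known. Each marker gene with a named probe was well above background on both arrays on the probe that stood for it. The macrophage marker Cd68 had no named probe. The summed signals given for each list are set by its brightest probes and can go another way than its median. Endothelial markers, from the cells that make Nos3 and much of Edn1 and Ednrb, had a median of -0.05 over 12 genes, 0 of them at 2-fold, and a summed scaled signal of 354076 in WT and 339421 on the other. All 12 lay above the differences of Ednrb, Nos3 and Nos2. The lowest of them was Tie1, an endothelial receptor, at -0.30, and the highest Plvap, of fenestral diaphragms, at 0.64. Ednrb and Nos3 were thus lower on the knockout-labelled array by more than any endothelial marker of the list. In bulk RNA, fewer cells of a type and less RNA of a gene per cell cannot be told apart for a single gene.

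Mesangial and smooth muscle markers, beside which Ednra is read, had a median of 0.0097 over 9 genes and summed to 119330 and 101028, a lower sum beside a median near 0. Itga8, an integrin of mesangial cells, gave -0.42 and was the only one of the 9 below Ednra, and Myh11, a smooth muscle myosin, gave 1.13 at dim signals. The 10 podocyte markers had a median of 0.12 and summed to 396533 and 445731, with Nphs1 (nephrin) at 0.63 and Cd2ap, its adaptor, at 0.34. Above 0 were 8 of the 10, and 2 lay below, Tcf21 at -0.30 and Synpo at -0.07, named after their values were seen. All 10 lay above Ednrb, Nos2 and Nos3. They also lay above Ednra, though Tcf21 at -0.30 was close to Ednra at -0.31.

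Macrophage markers, beside which Nos2 is read, had a median of -0.078 over 9 measured genes and summed to 13920 and 15121, a higher sum beside a median below 0. Of these, 3 lay above 0 and 6 below. Adgre1 (F4/80) gave -0.91, the only one of the 9 below Nos2, and C1qc, a complement component, gave -0.46. On the other side, Mrc1, a mannose receptor, gave 0.36, Itgam, an integrin, 0.31 and Lyz2, a lysozyme, 0.06, all named after their values were seen. Proximal tubule markers lay below 0 in 8 of 8 cases, with a median of -0.33 and sums of 13452 and 9662. The water channel gene Aqp1 gave -0.93 and the lactate transporter gene Slc5a12 -0.80, as low as Ednrb or lower. Whether tubule or macrophage content contributed to the lower Nos2 and Ednrb signals was not tested.

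Markers of the loop of Henle and distal tubule, beside which Nos1 of the macula densa is read, had a median of 0.97 over 7 genes, 5 of them above 0 and 2 below, and sums of 2484 and 4508. The highest values were those of distal tubule genes at dim signals, Slc12a3, the thiazide-sensitive cotransporter, at 2.53 (22.1 in WT and 127.6 on the other array) and Calb1, a calcium-binding protein, at 1.39 (26.1 and 68.4). Higher values were not confined to dim probes. Kcnj1 gave 1.38 (273.7 and 712.0) and Umod 0.97 (1519 and 2969.5), both brighter than the median probe and named after their values were seen. The 2 below 0 are both known from the macula densa, Slc12a1, the cotransporter of the loop and macula densa, at -0.15 and Ptgs2, a prostaglandin synthase, at -0.62. Pvalb, of the distal tubule, gave 0.19 on its brighter probe and 1.44 on its dimmer one (24.8 in WT and 67.4 on the other array). Slc12a1, Ptgs2 and Pvalb were named after their values were seen. Collecting duct markers, from cells that also make Edn1 and Ednrb, had a median of 0.25 over 6 genes and sums of 594 and 656, with Scnn1b at 0.91 and Scnn1g at 0.38, both subunits of the sodium channel. B cell markers lay above 0 in 8 of 8 cases, with a median of 1.33, sums of 1047 and 3994, and the highest values for Cd22 at 2.32 and Fcmr, an IgM receptor, at 1.89. The collecting duct list was mixed, with Fxyd4 at -0.08, Aqp3 at 0.05 and Aqp2 at 0.15, which were named after their values were seen. The part of tissue makeup in the values of the 8 genes was not tested.

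**Figure D5:**
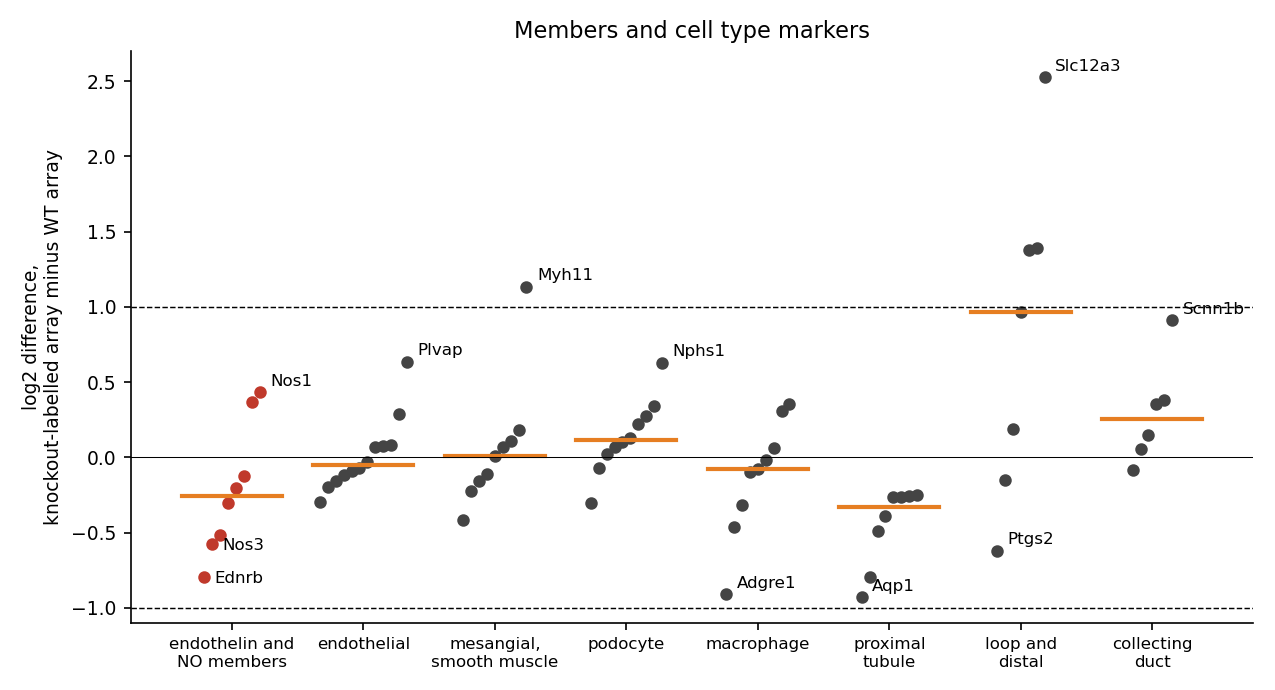
Log2 difference between the arrays for the 8 members (red) and for measured markers of 7 cell types (grey), 1 point per gene, with orange bars at the medians and dashed lines at 2-fold. Endothelial, mesangial and macrophage medians lie between -0.078 and 0.0097, the proximal tubule median is -0.33 and the loop and distal median 0.97.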

How the data were processed

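Total RNA of glomeruli (0.25 µg) was labelled with Cy3 and hybridised, 1 array per group, per the labels' protocols. The deposited scanner files hold spot intensity, made by the authors with Agilent Feature Extraction 11.0.1.1 per the file headers and 9.1 per the submitters' processing notes. The other values used are quality flags that the authors deposited. The authors' deposited table holds log2 values with equal quartiles in both columns, made by steps that the labels and files do not state.

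The log2 of the processed intensity was averaged over unmarked spots of a probe, and each array's 75th percentile over gene probes (1157 and 1109) was subtracted. Of the gene probes, 27234 (69.1%) were named through RefSeq accessions in a table of GRCm38.p6. The arrays were designed on mm9, so only names were taken from it. A probe counted as measured if more than 50% of its spots passed the well-above-background flag on each array, and the brightest probe stood for a gene. Differences were checked on simulated data with Python 3.11.15, and limma 3.58.1 was used for normexp. Named are all members, the 2 measured genes of each list farthest from 0, any pathway gene past 2-fold, and Sirpa. A few genes outside this rule are marked where they stand. Members and lists were chosen with earlier results of these data known. Alternatives were other scalings, background correction, filters, probe choices and the authors' table.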

Additional observations from a re-analysis of the deposited data

How the results depend on the processing

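No paired analysis was possible because each group has 1 array, and for the same reason no replicate could be left out. The difference kept its sign for Edn1, Ednra, Ednrb, Ece1, Nos2 and Nos3 in all 10 alternatives and for Nos1 in all 9 that gave a value, while Edn3 turned positive in 1 of 9. Ednrb ranged from -0.82 to -0.60 and Nos3 from -0.61 to -0.57. Ednrb was -0.70 as the mean of its probes and -0.60 on the second brightest probe. The number of members at least 2-fold lower was 0 in 10 alternatives and 1 at a threshold of 1.5-fold, and the number higher was 0 in all 11. The median of the members was -0.41 with the stricter filter, which kept 6 of them. Of the pathway genes, 0 were at least 2-fold higher with normexp or the stricter filter and 2 with no filter, and 2 were at least 1.5-fold lower. With normexp, computed from median spot signals because the files hold no mean signal, which was chosen after seeing the data, 58.9% of all genes past 2-fold were higher, against 48.4%. The count of members below 0 was also added after seeing the data and was 5 or 6 in all 10 alternatives. Edn3 and Nos1, at or below the median probe, are limited by signal over background.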
